A study of Mus musculus with 10 samples.

Results

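The proteasome genes described here are the 43 genes whose symbol is Psm, a letter from a to g and a number, without the immunoproteasome genes Psmb8, Psmb9 and Psmb10, that reached 1 CPM (reads per 1000000 reads of the library) in at least 5 libraries. The table holds 45706 genes, of which 12350 passed the same minimum and were tested. The pattern matched 48 symbols. Besides the 3 immunoproteasome genes, Psma8, an alpha subunit known from the testis, at 0.126 to 0.721 CPM, and Psmb11, a beta subunit known from the thymus, listed at 0 in 9 libraries, stayed under the minimum.

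The samples are left ventricles of mice that underwent TAC (transverse aortic constriction), in which a tightened suture around the aortic arch raises the pressure the ventricle pumps against. All 10 libraries came from TAC hearts, 5 given osimertinib and 5 given placebo (the treatment of the placebo samples is labelled vehicle). Osimertinib inhibits the kinase of the epidermal growth factor receptor and is used against lung cancer, and the study was designed around its cardiotoxicity. Strain, age, dose and time after surgery are not stated in the labels, and no sham-operated hearts were analysed here. Nothing in the labels ties each sample to its own animal, so p-values measure the spread between samples, which may be technical.

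The proteasome is the large protease that degrades most ubiquitin-tagged proteins of the cell. Its 20S core is a barrel of outer rings of alpha subunits, which form the gate, and inner rings of beta subunits, of which 3 kinds cut peptide bonds. The 19S regulatory particle caps the barrel. Its base holds a ring of ATPases that unfold substrates, and its lid removes the ubiquitin chain. Other activators can cap the core in place of the 19S particle, and dedicated chaperones assemble the rings. In cardiac muscle the proteasome turns over sarcomere proteins and damaged proteins, and immunoproteasome subunits replace the 3 constitutive catalytic subunits where interferon signalling is active.

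The promoter letters of 5 members are shown because each holds a match to 1 of 2 motifs known from promoters of this kind: the ETS motif CCGGAAG, common in promoters of housekeeping genes, and the antioxidant response element TGACNNNGC, the letters known to be bound by the factors encoded by Nfe2l1 and Nfe2l2. Each window runs from 250 bases before to 50 bases after the RefSeq gene start, written 5′ to 3′ on the gene's strand, with matches on either strand in capitals. Psmd13 (chr7:140882144-140882443, plus strand) and Psmd2 (chr16:20651402-20651701, plus strand) are the lid and the base gene with the lowest adjusted p after rescaling. Psmg3 (chr5:139826845-139827144, minus strand) is the assembly gene with the smallest fold change, and Psmb5 (chr14:54617946-54618245, minus strand) and Psmb6 (chr11:70525107-70525406, plus strand) encode catalytic subunits. All coordinates are GRCm38.
Psmd13: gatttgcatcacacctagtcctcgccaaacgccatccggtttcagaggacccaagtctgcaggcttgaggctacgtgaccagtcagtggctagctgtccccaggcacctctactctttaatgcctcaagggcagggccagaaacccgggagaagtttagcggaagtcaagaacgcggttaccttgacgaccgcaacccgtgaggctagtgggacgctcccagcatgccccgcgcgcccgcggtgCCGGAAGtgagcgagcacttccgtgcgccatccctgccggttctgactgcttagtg
Psmd2: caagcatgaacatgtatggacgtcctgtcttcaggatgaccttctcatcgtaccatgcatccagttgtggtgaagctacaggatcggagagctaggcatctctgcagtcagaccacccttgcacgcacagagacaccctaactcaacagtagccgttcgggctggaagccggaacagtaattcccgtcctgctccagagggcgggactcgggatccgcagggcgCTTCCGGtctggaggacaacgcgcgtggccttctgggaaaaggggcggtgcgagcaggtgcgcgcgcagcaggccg
Psmg3: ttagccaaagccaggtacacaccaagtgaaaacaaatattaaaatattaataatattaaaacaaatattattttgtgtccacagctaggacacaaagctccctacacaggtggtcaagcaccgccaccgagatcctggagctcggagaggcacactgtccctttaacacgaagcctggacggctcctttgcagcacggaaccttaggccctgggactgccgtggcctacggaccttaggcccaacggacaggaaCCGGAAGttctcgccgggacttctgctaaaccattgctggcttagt
Psmb5: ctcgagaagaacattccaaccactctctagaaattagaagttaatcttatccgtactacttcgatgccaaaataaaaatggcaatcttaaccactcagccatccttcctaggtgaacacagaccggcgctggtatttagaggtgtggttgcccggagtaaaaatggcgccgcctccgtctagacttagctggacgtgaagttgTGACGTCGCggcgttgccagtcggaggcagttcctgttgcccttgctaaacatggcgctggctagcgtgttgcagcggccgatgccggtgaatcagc
Psmb6: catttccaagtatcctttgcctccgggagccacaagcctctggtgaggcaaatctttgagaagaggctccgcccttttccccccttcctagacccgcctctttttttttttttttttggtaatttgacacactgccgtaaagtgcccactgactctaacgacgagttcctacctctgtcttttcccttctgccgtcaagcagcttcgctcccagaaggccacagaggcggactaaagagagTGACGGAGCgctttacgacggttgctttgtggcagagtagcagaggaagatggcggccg

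Psmd13, Psmd2 and Psmg3 each carried 1 ETS match, and Psmb5 and Psmb6 each carried 1 match to the antioxidant response element. RefSeq promoters (GRCm38.p6) were matched for 36 of the 43 genes, 39 promoters in all, and not for Psmb1, Psmb2, Psmb7, Psmc3, Psmd3, Psmd7 and Psmg2. The letters CCGGAAG lay in 15 of the 39 (38.5%), against 8.86% of all 32851 promoters of that length. The antioxidant response element lay in 6 of 39 (15.4%, against 12.4% of all promoters), in Psmb5, Psmb6, Psmc6, Psmd12, Psmd9 and Psme4. The letters CCAAT lay in 12 of 39 (30.8%, against 37.4%). Both strands were searched, and none of the 3 motifs contains another. The 32851 promoters were not limited to genes that passed the CPM minimum, as the members did, so the shares do not compare like with like. These counts describe letters in a window and not binding.

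The libraries differed in how many reads were left for nuclear genes. Depth, estimated from the spacing of the lowest values, was 15863265 to 21309296 reads. Mitochondrially encoded genes took 31.75% to 45.17% of the CPM in osimertinib and 38.13% to 63.35% in placebo, with placebo library 5 at the upper end. The deposited CPM carry no factor between libraries, so each fold change is given in the deposited CPM and again after median-ratio rescaling, which divides the CPM of a library by the median of its gene-wise ratios to the geometric mean over libraries (factors 0.4545 for placebo library 5 and 0.9257 to 1.344 for the others). The median log2 fold change of all 12350 genes was 0.27 in the deposited CPM and 0.01 after rescaling. Fold changes are osimertinib over placebo on the log2(CPM + 0.5) scale with the standard error (SE). Adjusted p-values of genes are limma's with Benjamini-Hochberg adjustment over all genes tested, called at 0.05. Limma pools the spread across genes. The deposited SE of the 43 members lay between 0.30 (Psmg3) and 0.34 (Psmb7), close to a value shared by genes. After rescaling it ran from 0.11 (Psme2) to 0.25 (Psmb7).

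Proteasome genes had higher mean levels in osimertinib across the core and the regulatory particle, and the size depended on the scaling. In the deposited CPM all 43 members had a log2 fold change above 0, against 76.3% of all genes, with a median of 0.67, and 1 member, the catalytic subunit gene Psmb7, rose past the threshold. That is 2.33% of the members, against 6.62% of all genes called higher. After rescaling 40 of the 43 (93.0%, against 51.1% of all genes) had a log2 fold change above 0, with a median of 0.39, and 10 members rose (23.3%, against 10.4% of all genes). The 10 were Psma2 and Psma5 of the alpha ring, Psmb2, Psmb3 and Psmb7 of the beta ring, the ATPase gene Psmc2, the base scaffold genes Psmd1 and Psmd2, the lid gene Psmd13 and the activator gene Psme3. No member was called lower under either scaling, and none had an unadjusted p under 0.05 in that direction by limma, with trend or with voom on the estimated reads. Of all genes, 1.02% in the deposited CPM and 18.1% after rescaling were lower at that unadjusted p. At an unadjusted p under 0.05, 27 members were higher in the deposited CPM (62.8%, against 20.6% of all genes) and 28 after rescaling (65.1%, against 20.2%). The groups did not overlap, with osimertinib higher, for 4 members in the deposited CPM (Psmb2, Psmb3, Psmd13 and Psmd9, 9.30%, against 5.33% of all genes) and for 4 after rescaling (Psmc2, Psmd1, Psmd13 and Psme3, 9.30%, against 5.72%). For no member was osimertinib lower without overlap, against 0.081% of all genes in the deposited CPM and 6.82% after rescaling. In bulk tissue, a change in the number of cells of a type and a change in the RNA per cell cannot be told apart.

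**Figure D1:**
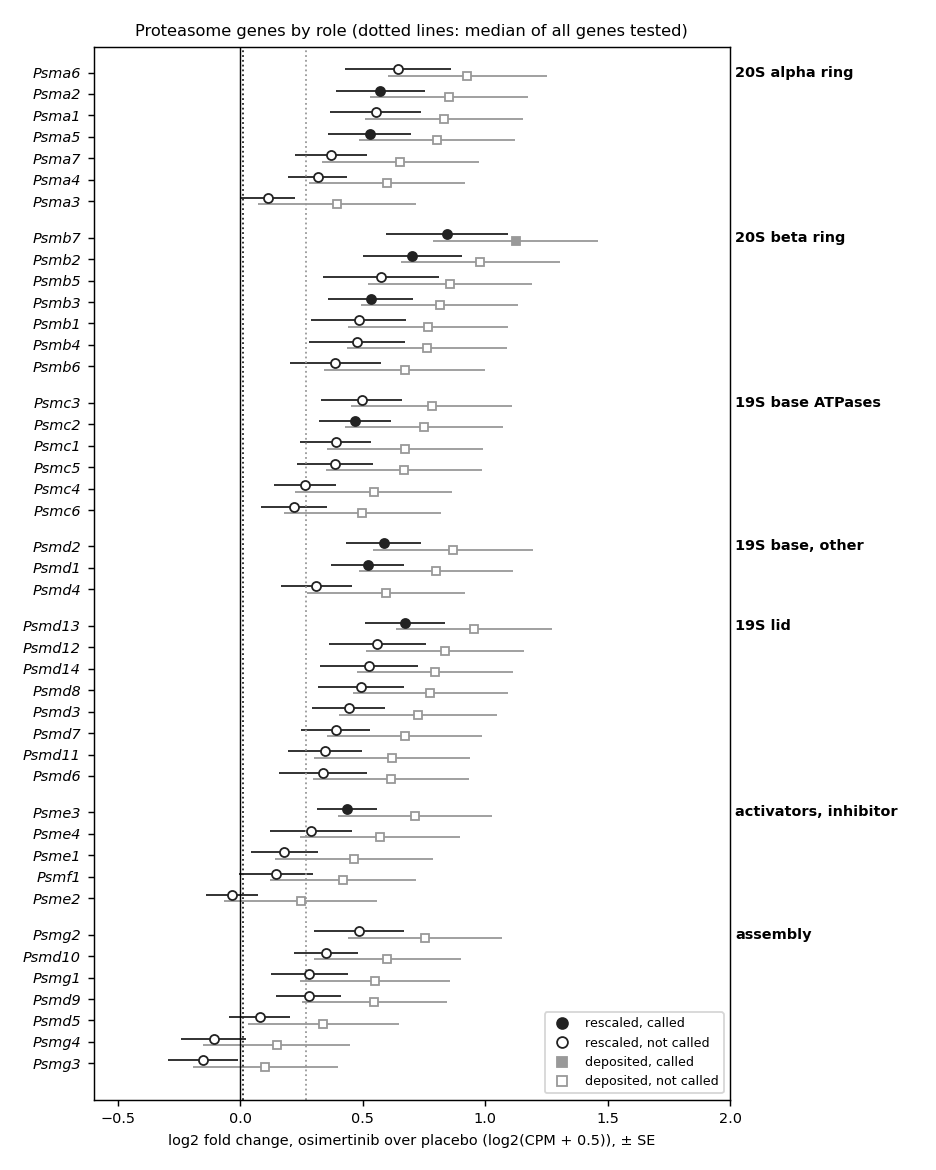
Log2 fold change, osimertinib over placebo, of each of the 43 proteasome genes by role, with SE bars, in rescaled CPM (circles) and deposited CPM (squares). Filled symbols passed the limma test, and dotted lines mark the median of all genes, 0.01 rescaled and 0.27 deposited. The filled circles are the 10 genes named in the text, and Psme2, Psmg3 and Psmg4 are the circles left of 0.

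The number of called members rested on single libraries, and so did the number called among all genes. The rescaled count of 10 was 0 without osimertinib library 3, osimertinib library 5, placebo library 1 or placebo library 2. Of all genes, 216, 294, 383 and 333 were called higher in those 4 fits in that order, against 1283 with every library. At an unadjusted p under 0.05, 17 to 22 of the 43 members were still higher there and none lower. Of the 12217 to 12287 genes tested in those fits, 3602 to 3916 were under that p, higher or lower. Leaving out placebo library 5 gave 4, osimertinib library 2 gave 6, osimertinib library 4 gave 20 and placebo library 3 gave 21. The same fits called 1029, 843, 1343 and 1547 of all genes higher. Across the leave-one-out fits the highest adjusted p of the 10 genes lay between 0.0621 for Psmd13 and 0.118 for Psma5 and Psmb3. In the deposited CPM the count of 1 was 0 without osimertinib library 2, 3 or 5 or placebo library 1. Of all genes, 495, 296, 335 and 380 were called higher in these fits, against 817 with every library. At an unadjusted p under 0.05, 12 to 20 of the 43 members were higher in these fits and none lower. Of the 12231 to 12287 genes tested in them, 1805 to 2221 were under that p, higher or lower. Leaving out placebo library 4 gave 2, placebo library 2 gave 3, osimertinib library 1 gave 4 and placebo library 3 gave 6. Those fits called 835, 1142, 1045 and 1087 of all genes higher. The median fold change moved less, between 0.32 and 0.47 after rescaling.

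Every alpha ring gene had a higher mean in osimertinib under both scalings, and 2 of the 7 (28.6%, against 10.4% of all genes) rose after rescaling, Psma2 and Psma5. The role's median log2 fold change was 0.80 in the deposited CPM and 0.53 after rescaling. Psma6, an alpha subunit gene (chromosome 12, 55384222 to 55418454), had the largest deposited fold change of the ring. It stood at 37.5, 64.3, 79.1, 47.5 and 74.6 CPM in osimertinib libraries 1 to 5 and at 26.2, 35.4, 43.3, 41.3 and 15.7 CPM in placebo libraries 1 to 5. Osimertinib libraries 2 to 5 lay above every placebo library, and osimertinib library 1 lay among them. For Psma6 the log2 fold change came to 0.93 ± 0.32 in the deposited CPM (adjusted p = 0.0649) and 0.64 ± 0.22 in the rescaled CPM (adjusted p = 0.0523), short of the threshold both times. Psma3, an alpha subunit gene at the other end of the ring's order (chromosome 12, 70974621 to 70996347), read 43.1, 53.5, 61.3, 49 and 58.03 CPM in osimertinib and 46.6, 58.2, 49.5, 39.7 and 18.8 CPM in placebo. Placebo libraries 4 and 5 lay below every osimertinib library, and the rest of the placebo libraries within their range. Its deposited log2 fold change was 0.39 ± 0.32 (adjusted p = 0.515) and its rescaled one 0.11 ± 0.11 (adjusted p = 0.473). Psma2 rose by 0.57 ± 0.18 (adjusted p = 0.0443) and Psma5 by 0.53 ± 0.17 (adjusted p = 0.046) on the rescaled scale. Psma5 shares 64.0% of the 31-base words of its transcript with other annotated transcripts, so the division of its reads is uncertain. Psma1, Psma4 and Psma7 were at 0.55, 0.32 and 0.37 after rescaling and were not called.

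In the beta ring 3 of 7 genes (42.9%, against 10.4% of all genes) rose after rescaling, and the role's median log2 fold change was 0.81 deposited and 0.53 rescaled. Psmb7 encodes the catalytic subunit with trypsin-like activity (chromosome 2, 38588036 to 38644087). Its level was 47.8, 67.7, 89.9, 58.3 and 98.02 CPM in the 5 osimertinib libraries and 26.6, 39.7, 56.5, 44.2 and 12.2 CPM in the 5 placebo libraries. The highest placebo library, library 3, lay above osimertinib library 1, so the groups overlapped, and placebo library 5 was far below the others. Psmb7 rose by 1.12 ± 0.34 on the log2 scale in the deposited CPM (adjusted p = 0.0284) and by 0.84 ± 0.25 after rescaling (adjusted p = 0.0361), higher than the placebo mean in 5 of 5 libraries. Rescaled, it read 48.7, 55.4, 77.9, 49.2 and 95.5 CPM in osimertinib and 25.2, 29.5, 54.2, 47.7 and 26.8 CPM in placebo, with placebo libraries 1, 2 and 5 low. Its rescaled call was lost without osimertinib library 2, 3 or 5 or placebo library 1, 2 or 5, with an adjusted p of up to 0.0953. The deposited call was lost without the same libraries other than placebo library 2, with an adjusted p of up to 0.107.

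Psmb5 and Psmb6, which encode the chymotrypsin-like and the caspase-like catalytic subunit, had higher means in osimertinib but did not pass the test. Psmb5 (chromosome 14, 54614119 to 54618022) stood at 68.8, 86.9, 107, 73.7 and 107 CPM in osimertinib and 36.9, 58.4, 90.6, 64.98 and 19.9 CPM in placebo. Placebo library 3 reached the osimertinib range, and placebo libraries 1 and 5 lay well under it. Psmb5 thus had a deposited log2 fold change of 0.86 ± 0.33 (adjusted p = 0.106) and a rescaled one of 0.57 ± 0.24 (adjusted p = 0.0975). Psmb6 (chromosome 11, 70525367 to 70527858) stood at 81.4, 96.8, 114, 83.2 and 111 CPM in osimertinib and 50.04, 77.9, 97.4, 75.7 and 27.6 CPM in placebo. Here too placebo library 3 lay within the osimertinib range. On the log2 scale Psmb6, with the smallest deposited difference of the ring, differed by 0.67 ± 0.33 in the deposited CPM (adjusted p = 0.218) and by 0.39 ± 0.19 in the rescaled CPM (adjusted p = 0.144). Of the noncatalytic beta genes, Psmb2 rose by 0.70 ± 0.20 (adjusted p = 0.0338) and Psmb3 by 0.53 ± 0.17 (adjusted p = 0.0468) after rescaling. Psmb1 and Psmb4 were at 0.48 and 0.48 and were not called. Psmb5 shares 74.0% and Psmb3 66.8% of these words with other annotated transcripts, mostly pseudogenes, so the division of their reads is uncertain.

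Of the 3 catalytic genes of the immunoproteasome none rose under either scaling, also at an unadjusted p under 0.05, and 2 fell after rescaling. Psmb8, which replaces Psmb5 in the core, stood at 33.8, 37.2, 27.6, 36.2 and 27.9 CPM in osimertinib and 45.8, 45.9, 37.8, 32.5 and 23.8 CPM in placebo. Psmb9, the counterpart of Psmb6, stood at 17.7, 16.3, 12.1, 17.1 and 13.4 CPM in osimertinib and 25.6, 27.1, 17.3, 16.6 and 11.2 CPM in placebo. Psmb10, the counterpart of Psmb7, stood at 51.4, 60.2, 53.9, 49.2 and 53.6 CPM in osimertinib and 46.1, 59.8, 51.6, 43.4 and 29.2 CPM in placebo. For all 3 the deposited groups overlapped. In the deposited CPM the log2 fold changes were -0.16 ± 0.31, -0.29 ± 0.31 and 0.25 ± 0.31 (adjusted p = 0.816, 0.642 and 0.698). After rescaling Psmb8 fell, at -0.44 ± 0.14 (adjusted p = 0.0442), as did Psmb9, at -0.57 ± 0.15 (adjusted p = 0.029), against 10.5% of all genes called lower. The Psmb8 call was lost without osimertinib library 2, 3, 4 or 5 or placebo library 1, 2 or 5 (adjusted p up to 0.115), and the Psmb9 call without the same libraries other than osimertinib library 4 (up to 0.0801). Psmb10 was at -0.03 ± 0.12 after rescaling (adjusted p = 0.878).

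A ratio of 2 genes within a library does not depend on a factor between libraries, apart from the 0.5 CPM added to each gene before the logarithm. The log2 ratio of Psmb8 to Psmb5 averaged -1.42 ± 0.47 in osimertinib and -0.40 ± 0.71 in placebo (SD, n = 5 each), a difference of -1.02 (exact permutation test, two-sided, p = 0.0556). That of Psmb9 to Psmb6 averaged -2.63 ± 0.45 in osimertinib and -1.67 ± 0.62 in placebo, a difference of -0.96 (exact p = 0.0317). That of Psmb10 to Psmb7 averaged -0.38 ± 0.41 in osimertinib and 0.49 ± 0.57 in placebo, a difference of -0.87 (exact p = 0.0397). All 5 osimertinib libraries lay under the placebo mean for each ratio, and 2, 3 and 4 of them lay under the lowest placebo library for the 3 ratios in that order. As linear ratios, Psmb8 to Psmb5 was 0.492, 0.428, 0.258, 0.492 and 0.259 in osimertinib and 1.24, 0.786, 0.418, 0.4995 and 1.19 in placebo. Adjusted over the 3 ratios, each p was 0.0556, so no ratio passed the threshold. The smallest p that 5 libraries against 5 allow is 0.00794. Without placebo library 3 the adjusted p was 0.0119, 0.0119 and 0.0238 for the ratios in the same order. Without placebo library 4 it was 0.0397 for each. Leaving out placebo library 1 or 5 gave 0.111, 0.107 and 0.107, and leaving out osimertinib library 3 or 5 gave 0.0952 for each. With any other library left out it lay between 0.0595 and 0.0635. Over all alternatives run, the adjusted p of a ratio lay between 0.0119 and 0.119.

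**Figure D2:**
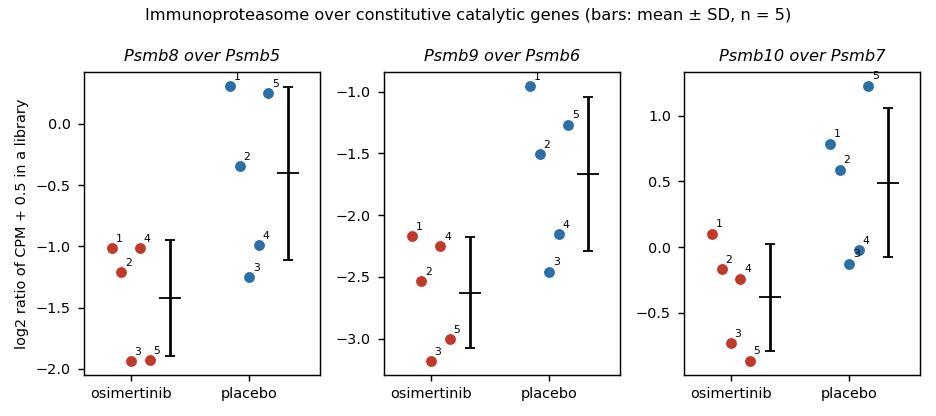
Log2 ratio of each immunoproteasome catalytic gene to its constitutive counterpart in each library, numbered, with the mean ± SD of the 5 osimertinib and the 5 placebo libraries. All osimertinib points lie under the placebo mean, and placebo libraries 3 and 4 lie nearest to them.

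Among the ATPase genes of the 19S base, 1 of 6 rose after rescaling, Psmc2 (0.47 ± 0.15, adjusted p = 0.0412), a share of 16.7% beside 10.4% of all genes. All 6 had a log2 fold change above 0 under both scalings (76.3% of all genes deposited, 51.1% rescaled), with a median of 0.67 deposited and 0.39 rescaled. Psmc2 read 41.6, 40.03, 52.6, 40.1 and 59.3 rescaled CPM in osimertinib and 26.8, 33.1, 36.9, 39.98 and 30.8 rescaled CPM in placebo. Its groups did not overlap on this scale, by a margin of less than 1 CPM between osimertinib library 2 and placebo library 4. Psmc3 (chromosome 2, 91054009 to 91066369), the ATPase gene with the largest deposited fold change, stood at 103, 140.2, 158, 123 and 161 CPM in osimertinib and 67.9, 106, 114, 94.2 and 38.2 CPM in placebo. Osimertinib library 1 lay under placebo libraries 2 and 3, and the other 4 lay above all placebo libraries. For Psmc3 the log2 fold change came to 0.78 ± 0.33 in the deposited CPM (adjusted p = 0.137) and 0.50 ± 0.17 in the rescaled CPM (adjusted p = 0.0508). Psmc6 (chromosome 14, 45329788 to 45349705), with the smallest, stood at 30.3, 46.3, 49.995, 33.1 and 42.5 CPM in osimertinib and 32.4, 40.2, 35.4, 30.2 and 12.2 CPM in placebo. The groups of Psmc6 overlapped widely. Its deposited log2 fold change was 0.50 ± 0.32 (adjusted p = 0.388) and its rescaled one 0.22 ± 0.13 (adjusted p = 0.247). Psmc1, Psmc4 and Psmc5 were at 0.39, 0.26 and 0.39 after rescaling.

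Of the 3 other base genes, both scaffold genes rose after rescaling and the ubiquitin receptor gene did not. Psmd2 (chromosome 16, 20651652 to 20663414), whose promoter with its ETS match is shown above, stood at 77.8, 107, 118, 88.5 and 124 CPM in osimertinib and 52.8, 79.996, 78.2, 62.1 and 25.2 CPM in placebo. Osimertinib library 1 fell just short of placebo libraries 2 and 3, and the other 4 lay above. Psmd2 thus had a deposited log2 fold change of 0.87 ± 0.33 (adjusted p = 0.0925) and a rescaled one of 0.59 ± 0.15 (adjusted p = 0.0256). Its partner in the base, Psmd1, rose by 0.52 ± 0.15 after rescaling (adjusted p = 0.0335), at 23.8, 24.6, 37.5, 23.997 and 35.9 rescaled CPM in osimertinib and 17.5, 18.4, 22.5, 20.1 and 20.7 in placebo, without overlap. Psmd4 (chromosome 3, 95032694 to 95042614), a receptor for ubiquitin chains, stood at 78.8, 93.2, 106, 84.9 and 96.6 CPM in osimertinib and 51.97, 80.4, 84.6, 69.5 and 32.6 CPM in placebo. Placebo libraries 2 and 3 lay in the lower osimertinib range. On the log2 scale Psmd4 differed by 0.59 ± 0.32 in the deposited CPM (adjusted p = 0.276) and by 0.31 ± 0.15 in the rescaled CPM (adjusted p = 0.136). Psmd2 shares 45.3% of its 31-base words with other transcripts.

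In the lid 1 of 8 genes rose after rescaling, Psmd13, a share of 12.5% that is near the 10.4% of all genes. All 8 had a log2 fold change above 0 under both scalings, against 76.3% of all genes deposited and 51.1% rescaled (median of the 8, 0.75 deposited and 0.47 rescaled). Psmd13, a structural lid subunit gene (chromosome 7, 140881968 to 140898643), had the lowest rescaled adjusted p of the 43 members. Its values were 41.4, 55.4, 66.8, 51.1 and 63.2 CPM in osimertinib and 26.4, 31.9, 39.3, 34.2 and 15.3 CPM in placebo. The groups did not overlap in the deposited CPM, nor after rescaling, where osimertinib read 42.2, 45.3, 57.8, 43.1 and 61.6 and placebo 24.96, 23.7, 37.7, 36.9 and 33.7 CPM. Psmd13 was at 0.95 ± 0.32 in the deposited CPM (adjusted p = 0.0512) and rose by 0.67 ± 0.16 after rescaling (adjusted p = 0.021). That call was lost without osimertinib library 3 or 5 or placebo library 1 or 2. Psmd14 (chromosome 2, 61711694 to 61800376), the metalloprotease that cuts the ubiquitin chain from the substrate, stood at 12.1, 20.7, 27.8, 16.5 and 21.7 CPM in osimertinib and 9.72, 15.8, 17.97, 10.3 and 4.97 CPM in placebo. Its groups overlapped, with placebo library 3 above osimertinib libraries 1 and 4. For Psmd14 the log2 fold change came to 0.80 ± 0.32 in the deposited CPM (adjusted p = 0.116) and 0.52 ± 0.20 in the rescaled CPM (adjusted p = 0.0756).

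Psmd6 (chromosome 14, 14112174 to 14120984), a lid subunit gene with the role's smallest deposited fold change, stood at 22.7, 34.4, 40.2, 25.5 and 39.3 CPM in osimertinib and 19.8, 25.03, 31.2, 22.3 and 10.3 CPM in placebo. Placebo library 3 lay above osimertinib libraries 1 and 4. Its deposited log2 fold change was 0.61 ± 0.32 (adjusted p = 0.248) and its rescaled one 0.34 ± 0.18 (adjusted p = 0.187). The other lid genes, none of them called, were at 0.56 (Psmd12), 0.49 (Psmd8), 0.44 (Psmd3), 0.39 (Psmd7) and 0.34 (Psmd11) after rescaling.

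**Figure D3:**
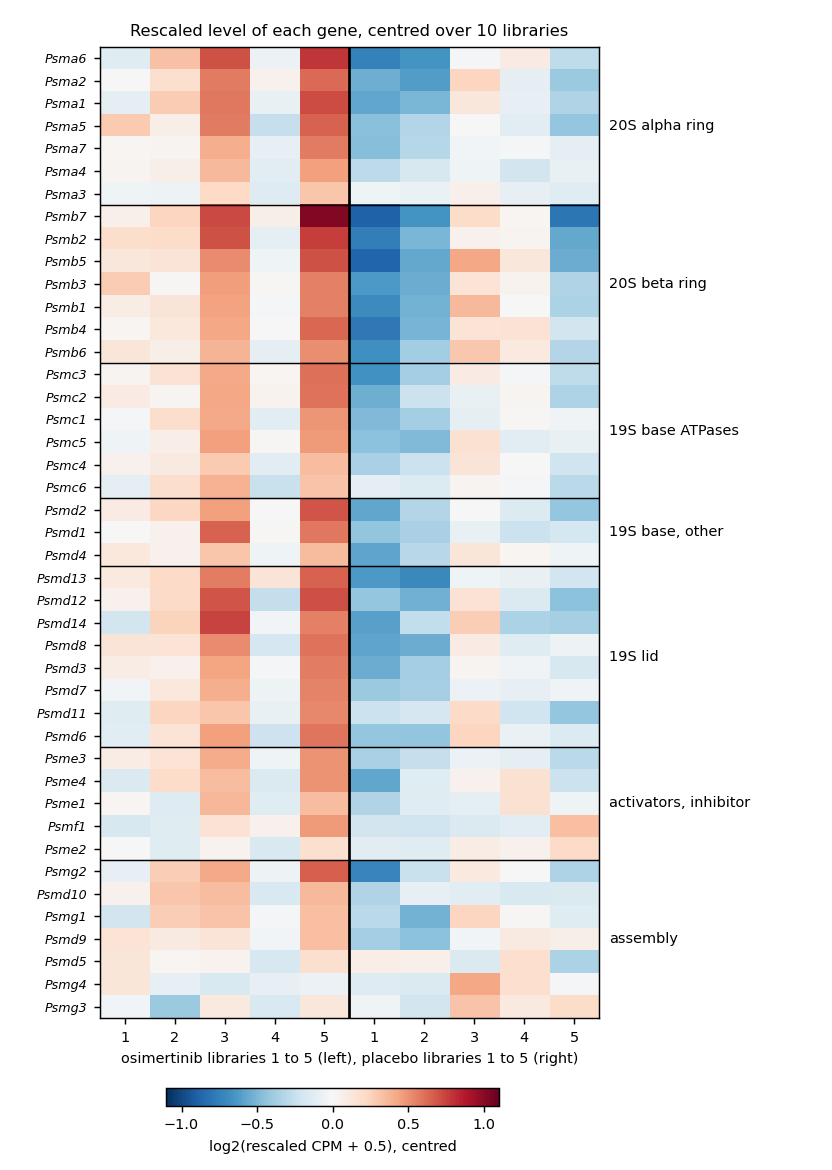
Rescaled level of each proteasome gene in each library, as log2(rescaled CPM + 0.5) centred over the 10 libraries, with osimertinib libraries left of the vertical line and placebo libraries right of it. Osimertinib libraries 3 and 5 are the highest columns in most rows and placebo libraries 1 and 2 the lowest, while the activator and assembly rows at the bottom are paler.

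Among the alternative caps of the core, the activators and the inhibitor, 1 of 5 genes (20%, against 10.4% of all genes) rose after rescaling, and the median log2 fold change was 0.46 deposited and 0.18 rescaled. Psme3 (chromosome 11, 101316213 to 101323537) encodes the nuclear activator that works without ubiquitin. It stood at 24.1, 31.5, 35.7, 26.6 and 33.7 CPM in osimertinib and 18.95, 25.97, 23.05, 19.9 and 8.54 CPM in placebo. After rescaling the groups of Psme3 did not overlap, at 24.6, 25.8, 30.96, 22.4 and 32.9 CPM in osimertinib and 17.95, 19.3, 22.1, 21.5 and 18.8 CPM in placebo. Psme3 was at 0.71 ± 0.32 in the deposited CPM (adjusted p = 0.164) and rose by 0.44 ± 0.12 after rescaling (adjusted p = 0.0309). Psme4 (chromosome 11, 30771726 to 30880361), the large single-chain activator, stood at 58.7, 94.5, 97.8, 71.1 and 97.4 CPM in osimertinib and 47.6, 82.3, 72.3, 69.6 and 25.9 CPM in placebo, with overlapping groups. Psme4 thus had a deposited log2 fold change of 0.57 ± 0.33 (adjusted p = 0.315) and a rescaled one of 0.29 ± 0.17 (adjusted p = 0.227).

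Psme1 and Psme2 encode the paired subunits of the activator known to be induced by interferon gamma. Psme1 (chromosome 14, 55578123 to 55581529) stood at 64.6, 71.996, 97.2, 70.5 and 84.5 CPM in osimertinib and 54.6, 79.7, 63.01, 67.7 and 28.7 CPM in placebo, and Psme2 (chromosome 14, 55587441 to 55591113) at 35.6, 40.5, 43.2, 38.6 and 42.3 CPM in osimertinib and 35.4, 44.6, 40.4, 34.9 and 19.2 CPM in placebo. Apart from the low placebo library 5, the levels of Psme2 lay close together in both groups. On the log2 scale Psme1 differed by 0.46 ± 0.32 in the deposited CPM (adjusted p = 0.429) and by 0.18 ± 0.14 in the rescaled CPM (adjusted p = 0.355). Psme2 was at 0.25 ± 0.31 in the deposited CPM (adjusted p = 0.709) and at -0.04 ± 0.11 after rescaling (adjusted p = 0.826), so its sign depended on the scaling. Psme2 shares 66.2% of its 31-base words with Psme2b, which reached at most 3.65 CPM. Psmf1 (chromosome 2, 151715812 to 151744186), which encodes an inhibitor of the core in the test tube, stood at 9.64, 12.4, 14.5, 13.7 and 16.1 CPM in osimertinib and 10.2, 12.8, 10.4, 9.53 and 6.48 CPM in placebo. For Psmf1 the log2 fold change came to 0.42 ± 0.30 in the deposited CPM (adjusted p = 0.445) and 0.15 ± 0.15 in the rescaled CPM (adjusted p = 0.504), with the highest placebo value, 14.2 rescaled CPM, in placebo library 5.

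None of the 7 assembly genes was called by limma under either scaling, and 2 had an unadjusted p under 0.05 under each (28.6%, both higher, against 20.6% of all genes deposited and 20.2% rescaled, which is near). The median log2 fold change was 0.55 deposited and 0.28 rescaled. Psmg2 (chromosome 18, 67641599 to 67654162), a chaperone of the alpha ring, stood at 11.8, 19.1, 20.02, 14.6 and 21.1 CPM in osimertinib and 7.99, 14.4, 14.5, 11.8 and 4.55 CPM in placebo. Its osimertinib libraries 2 to 5 lay above every placebo library. Psmg2 thus had a deposited log2 fold change of 0.75 ± 0.31 (adjusted p = 0.132) and a rescaled one of 0.48 ± 0.18 (adjusted p = 0.0742). Psmg3 (chromosome 5, 139823592 to 139826885), another alpha ring chaperone, stood at 5.08, 4.73, 6.64, 5.52 and 5.99 CPM in osimertinib and 5.43, 6.11, 7.03, 5.34 and 2.82 CPM in placebo. Placebo library 3 lay above every osimertinib library and placebo library 5 below. On the log2 scale Psmg3 differed by 0.10 ± 0.30 in the deposited CPM (adjusted p = 0.885) and by -0.15 ± 0.14 in the rescaled CPM (adjusted p = 0.454). Its sign was negative also without placebo library 5, at -0.09 in the deposited CPM. Psmg4, which pairs with Psmg3, was at 0.15 deposited and -0.11 rescaled, and Psmg1, which pairs with Psmg2, at 0.55 deposited and 0.28 rescaled. The chaperones of the base, Psmd5, Psmd9 and Psmd10, were at 0.08, 0.28 and 0.35 after rescaling.

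Levels per kilobase of transcript allow genes to be compared with each other. Psmb6 was highest in the deposited CPM per kilobase, at 122 ± 18.9 in osimertinib and 82.4 ± 34.04 in placebo (SD, n = 5 each). Psmb5 followed at 98.7 ± 20.2 in osimertinib and 60.2 ± 30.1 in placebo, and Psmb4 at 97.95 ± 18.5 in osimertinib and 60.998 ± 23.4 in placebo. Psmb5 and Psmb4 did not differ beyond their spread, and the ranges of 1 SD around Psmb6 and Psmb5 overlapped. The lid protease gene Psmd14 stood at 12.8 ± 3.83 in osimertinib and 7.62 ± 3.36 in placebo, below the ATPase gene Psmc3 at 83.7 ± 14.9 in osimertinib and 51.4 ± 18.96 in placebo. Psmd5 was lowest of the 43, at 2.16 ± 0.152 in osimertinib and 1.83 ± 0.733 in placebo. The lengths are those of the longest annotated principal transcript, which may not be the one expressed in the heart.

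**Figure D4:**
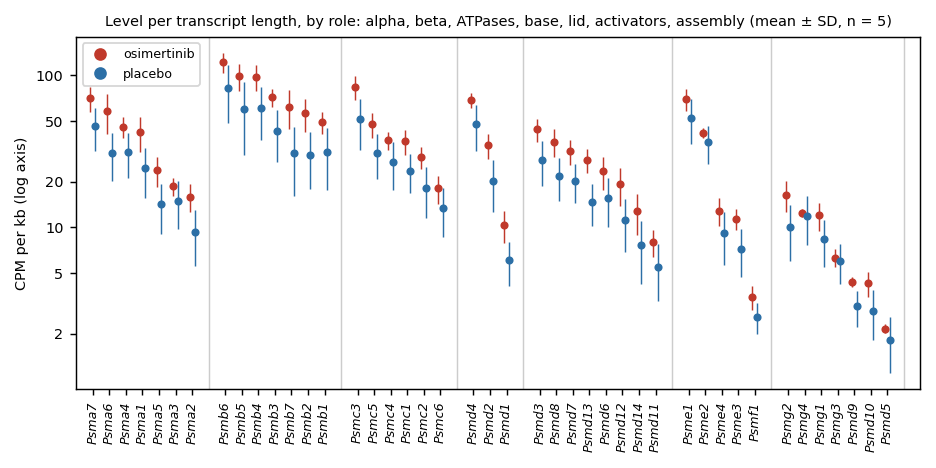
Deposited CPM per kilobase of principal transcript, on a log axis, for each proteasome gene, as the mean ± SD of 5 osimertinib (red) and 5 placebo (blue) libraries, ordered by level within each role. Psmb6 is the highest at 122 in osimertinib and 82.4 in placebo, and the base chaperone gene Psmd5 the lowest.

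Within groups the members moved together from library to library. After rescaling, the correlation of a member with the median of the other members, on values centred within each group, had a median of 0.91 over the 43 genes and was above 0.5 for 40 of them, from 0.15 for Psmd5 to 0.97. This is a description over 10 libraries that share their scaling factor across genes. The same correlation was not computed for other genes, so it is not shown to be particular to the proteasome. The median of all members, as rescaled log2 level centred over libraries, was 0.03, 0.14, 0.42, -0.07 and 0.55 in osimertinib libraries 1 to 5 and -0.47, -0.36, 0.09, -0.01 and -0.22 in placebo libraries 1 to 5. Osimertinib libraries 2, 3 and 5 lay above every placebo library, and osimertinib libraries 1 and 4 lay between placebo libraries.

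The libraries with high proteasome levels were in part those with high levels of ventricular cardiomyocyte markers. Their summed rescaled level was 24924, 28726, 35833, 25850 and 41106 CPM in osimertinib libraries 1 to 5 and 13399, 18090, 27999, 30782 and 18051 CPM in placebo libraries 1 to 5. The same libraries, osimertinib 3 and 5, were highest, and placebo libraries 1, 2 and 5 were the 3 lowest, while placebo library 4 lay above osimertinib libraries 1, 2 and 4. Of the 7 markers, 4 rose in the deposited CPM (57.1%, against 6.62% of all genes). After rescaling 1 rose, Actn2 (14.3%, near the 10.4% of all genes). At an unadjusted p under 0.05 by limma, 3 of these 7 were higher after rescaling (42.9%, against 20.2% of all genes). The rescaled median log2 fold change of the 7 was 0.80, against 0.39 for the proteasome members. Endothelial markers summed to 1073 to 1372 CPM in osimertinib and 1216 to 1854 CPM in placebo. After rescaling 2 of 6, Tie1 and Egfl7, fell (33.3%, against 10.5% of all genes). Macrophage markers summed to 181 to 241 CPM in osimertinib and 129 to 190 CPM in placebo. Of the 6, Adgre1 and Lyz2 were higher after rescaling (33.3%, against 10.4% of all genes). Atrial muscle markers, of which Bmp10 was at 0 in every library, summed to 710 to 4714 CPM in osimertinib and 517 to 1412 CPM in placebo. Of the 6 tested, 3 rose in the deposited CPM (50%, against 6.62% of all genes) and none after rescaling. At an unadjusted p under 0.05, 1 was higher after rescaling (16.7%, near the 20.2% of all genes). No fibroblast, smooth muscle or lymphocyte marker was called by limma under either scaling, but only 1 of the 5 lymphocyte markers was tested. Of these lists only fibroblast markers had an unadjusted p under 0.05, all higher. They were 3 of 6 in the deposited CPM (50%, against 20.6% of all genes) and 1 after rescaling (16.7%, near the 20.2% of all genes). The part of these shifts in the proteasome values was not tested.

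Genes that work with the proteasome were read from lists written with earlier results of these data known. Their counts stand beside the shares of all genes, which were 6.62% called higher in the deposited CPM and 10.4% after rescaling, and 20.6% and 20.2% higher at an unadjusted p under 0.05. Of 16 tested genes for proteasome-associated proteins without a Psm symbol (a further gene, Paaf1, was not matched by symbol), 3 (18.8%) rose after rescaling and none in the deposited CPM (6, 37.5%, at an unadjusted p under 0.05), with a median log2 fold change of 0.61 deposited and 0.33 rescaled. They were Ecpas, a proteasome adaptor (0.42 ± 0.11, adjusted p = 0.0287), Txnl1, a thioredoxin-like protein of the 19S particle (0.59 ± 0.18, adjusted p = 0.0375), and the deubiquitinase gene Usp14 (0.48 ± 0.15, adjusted p = 0.041). Of 5 ubiquitin and ubiquitin-activating genes, 1 (20%) rose after rescaling, the activating enzyme gene Uba1 (0.34 ± 0.10, adjusted p = 0.0352). None was called by limma in the deposited CPM, also at an unadjusted p under 0.05 (0 of 5). The medians of that list were 0.50 deposited and 0.23 rescaled.

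VCP is the segregase that pulls ubiquitinated proteins out of complexes and membranes. Of 11 genes for VCP and its cofactors, 3 rose after rescaling (27.3%, against 10.4% of all genes) and 1 in the deposited CPM (9.09%, against 6.62%). The list's medians of 0.31 deposited and 0.03 rescaled were near those of all genes, 0.27 and 0.01. Vcp stood at 114, 179.6, 221, 141 and 211 CPM in osimertinib and 85.1, 125, 118, 102 and 43.5 CPM in placebo, and rose by 0.63 ± 0.18 after rescaling (adjusted p = 0.0306). The cofactor gene Nploc4 rose by 0.35 ± 0.10 (adjusted p = 0.033) after rescaling. Faf1, another cofactor gene, rose in the deposited CPM (0.99 ± 0.31, adjusted p = 0.0401) and after rescaling (0.71 ± 0.19, adjusted p = 0.0281). Its deposited call was lost without osimertinib library 2, 3, 4 or 5 or placebo library 1 or 4, with an adjusted p of up to 0.168.

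The COP9 signalosome removes the ubiquitin-like modifier NEDD8 from cullin ligases and is built from the same kinds of domain as the lid. Of its 10 genes 4 rose after rescaling (40%, against 10.4% of all genes) and none in the deposited CPM (6 at an unadjusted p under 0.05, 60%, against 20.6%), with medians of 0.70 deposited and 0.42 rescaled. The 4 were Cops6 (0.64 ± 0.17, adjusted p = 0.0286), Cops7a (0.52 ± 0.15, adjusted p = 0.0306), Gps1 (0.34 ± 0.10, adjusted p = 0.0349) and Cops8 (0.43 ± 0.14, adjusted p = 0.0473). Cops6 stood at 36.3, 50.3, 65.7, 47.6 and 64.03 CPM in osimertinib and 24.2, 34.3, 38.7, 29.5 and 14.9 CPM in placebo. All of the rescaled calls in the associated, ubiquitin, VCP and COP9 lists were lost without osimertinib library 3, osimertinib library 5, placebo library 1 or placebo library 2, with adjusted p-values of up to 0.121, and some also without osimertinib library 2 or placebo library 4 or 5.

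Transcription of proteasome genes is known to be raised by the factor encoded by Nfe2l1 when proteasome activity is short, after its release by the enzymes encoded by Ddi2 and Ngly1. Of 12 genes for such regulators 1 rose and 1 fell after rescaling, 8.33% each way, near the 10.4% of all genes called higher and 10.5% called lower. None was called in the deposited CPM (1 at an unadjusted p under 0.05), and the medians were 0.03 deposited and -0.25 rescaled. At an unadjusted p under 0.05, 7 of the 12 were lower after rescaling (58.3%, against 18.1% of all genes). Nfe2l1 stood at 143, 209, 228, 193 and 219 CPM in osimertinib and 131, 154, 133, 124 and 53.6 CPM in placebo. Osimertinib library 1 lay under placebo library 2, and the rest of the osimertinib libraries lay above all placebo libraries. Nfe2l1 was at 0.80 ± 0.33 in the deposited CPM (adjusted p = 0.125) and rose by 0.52 ± 0.12 after rescaling (adjusted p = 0.0196), where the groups did not overlap, at 146, 171, 198, 163 and 214 CPM in osimertinib and 124, 115, 128, 134 and 118 CPM in placebo. Ddi2 stood at 21.5, 33.95, 26.8, 31.2 and 23.1 CPM in osimertinib and 33.9, 40.3, 39.04, 26.9 and 14.8 CPM in placebo, and fell after rescaling, at -0.40 ± 0.11 (adjusted p = 0.0281), against -0.12 ± 0.32 in the deposited CPM (adjusted p = 0.875). The rescaled values of Ddi2 did not overlap, at 21.97, 27.8, 23.2, 26.3 and 22.5 CPM in osimertinib and 32.1, 29.95, 37.4, 29.1 and 32.6 CPM in placebo. Nfe2l2, which encodes the related factor of the antioxidant response, stood at 46.4, 66.9, 52.7, 59.9 and 46.7 CPM in osimertinib and 63.2, 76.8, 67.7, 58.98 and 23.1 CPM in placebo. For Nfe2l2 the log2 fold change came to 0.00 ± 0.33 in the deposited CPM (adjusted p = 0.995) and -0.28 ± 0.10 in the rescaled CPM (adjusted p = 0.0696). The Nfe2l1 call was lost without osimertinib library 3 or 5 or placebo library 2 (adjusted p up to 0.0608), and the Ddi2 call without those libraries or placebo library 1 (up to 0.0766).

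**Figure D5:**
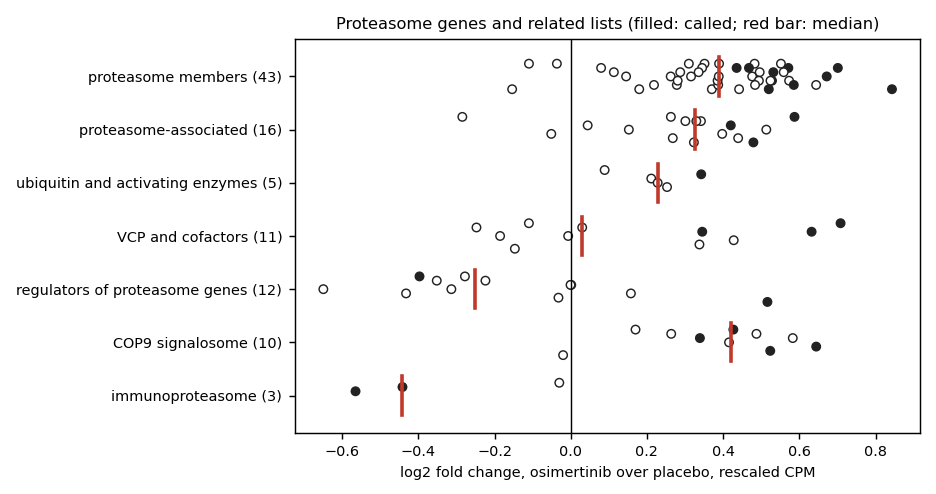
Log2 fold change after rescaling, osimertinib over placebo, of each gene of the proteasome set, the related lists and the immunoproteasome, with the number tested in brackets, called genes filled and the list median as a red bar. The medians run from 0.42 for the COP9 signalosome and 0.39 for the proteasome genes to -0.25 for the regulators and -0.44 for the immunoproteasome.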

How the data were processed

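Poly(A) RNA of 10 left ventricle samples was sequenced, 5 osimertinib and 5 placebo after TAC, grouped and numbered by sample title. The values are CPM, which the authors deposited as one value per gene and library summing to 1000000 per library. Per the series' design text, reads were aligned to GRCm38 with STAR and quantified with RSEM, from strand-specific libraries. The submitters' processing notes name cutadapt 1.9, HISAT2 2.0.4, StringTie 1.3.4d, DESeq2 and the human build hg38 instead, and which of them made the table is not resolved here. Of 45706 gene identifiers 98.8% matched the GENCODE M21 mouse annotation of GRCm38, which gave coordinates.

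The step between the lowest values gave each library's depth. Of values under 200 reads, 90.74% to 93.35% were whole within 0.01 read, so count tests were not run. All 45 library pairs differed by more than counting noise (chi-square over its degrees of freedom at least 23.8). Genes reaching 1 CPM in 5 or more libraries entered limma 3.58.1 (R 4.3.3), fitted with its trend option to log2(CPM + 0.5), two-sided, once on the deposited and once on the rescaled CPM. The script was tested on simulated data. Shared 31-base words were counted against all GENCODE M21 transcripts. Alternatives were a pseudocount of 0.1 or 2, testing unfiltered genes, requiring a mean of 5 CPM, CPM without mitochondrial and haemoglobin genes, voom on the estimated reads, the replicate number as a block, and each library left out.

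The members and all gene lists were chosen with earlier results of these data known, and 1 gene of the related lists is not reported here. Named with the value in every sample are the 3 constitutive catalytic genes, Psmd14, Psmd4, the activators and the inhibitor, and in each role the genes with the largest and the smallest deposited fold change, plus the immunoproteasome genes, Nfe2l1 and Nfe2l2. Up to 4 called genes of each related list by lowest p are named with their fold change. Rescaled values are added for members whose groups did not overlap after rescaling and for Psmb7, Nfe2l1 and Ddi2, and every-sample values for Psmc2, Psmd1, Vcp, Cops6 and Ddi2 were added after their values were seen.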

Additional observations from a re-analysis of the deposited data

Results flagged for a closer look

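In 174 groups of 5 libraries (the named genes under both scalings, by treatment, and the 3 ratios), the highest or lowest library was set against its nearest neighbour, and 2 stood apart by Dixon's 95% criterion, which chance alone exceeds in about 1 of 20 groups. Both were placebo library 5, which has the largest mitochondrial share and the smallest scaling factor. The proteasome inhibitor gene Psmf1 reached 14.2 rescaled CPM there, against 10.3 in the next placebo library. Psmb10 of the immunoproteasome reached 64.3 rescaled CPM, against 49.5 in the next.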

How the results depend on the processing

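The direction of the members' median held in every setting run, and the number of called members did not. In the deposited CPM the 1 member called higher became 3 with a pseudocount of 2, 3 with a mean of at least 5 CPM, 0 with no filter (29 members at an unadjusted p under 0.05), 10 after rescaling and 0 to 6 with each library left out. Of all genes, 817 of 12350 were called higher as reported and 951 of 12350 with a pseudocount of 2. With a mean of at least 5 CPM, 860 of 9239 genes were called higher. The members' median of 0.67 became 0.39 after rescaling, 0.41 without mitochondrial and haemoglobin genes and 0.46 to 0.81 with each library left out. The 833 genes called became 0 with no filter (3269 of 21622 at an unadjusted p under 0.05), 2574 after rescaling and 301 to 1150 with each library left out. After rescaling the 10 members became 2 with no filter and 0 to 21 with each library left out, the median 0.32 to 0.47, and the 2574 genes 1227 with no filter and 517 to 2789 with each library left out. The difference in log2 ratio lay between -1.23 and -0.84 for Psmb8 to Psmb5, between -1.16 and -0.78 for Psmb9 to Psmb6 and between -1.03 and -0.69 for Psmb10 to Psmb7 with each library left out. The cause of these moves was not tested, other than that no filter adds genes to the adjustment and leaving out a library removes a sample.

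Signs changed for 4 of the genes named with the value in every sample, none of them called. Psmg4, named with its fold change only and not called, also turned, from 0.15 deposited to -0.11 rescaled. In the deposited CPM Psme2 turned to -0.037 after rescaling and -0.014 without mitochondrial and haemoglobin genes, Psmg3 to -0.15 and -0.14 and, with each library left out, between -0.090 (placebo library 5) and 0.21, and Psmb10 to -0.030 and -0.0070. Nfe2l2 turned to -0.28 and -0.26 and, with each library left out, lay between -0.30 and 0.13, below 0 without osimertinib library 2 or 4 or placebo library 5. After rescaling, with each library left out, Psme2 lay between -0.086 and 0.012, above 0 without placebo library 5, and Psmb10 between -0.074 and 0.066, above 0 without osimertinib library 4 or placebo library 5.

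The shared replicate numbers were not taken to pair the samples. Same-numbered deviations correlated at 0.43, 0.25, 0.47, -0.33 and -0.17, and numbers 1 and 3 correlated best with their own number, the others not. So few values cannot settle whether same-numbered samples were paired. With the replicate number as a block, 4 of the 43 members were called higher in the deposited CPM, beside 1286 of all 12350 genes. After rescaling 19 were called higher, beside 1594 of all genes. In both directions 1320 genes were called in the deposited CPM and 2949 after rescaling. In the deposited CPM the variance prior was infinite with the block and in 8 of the 10 fits without a library, so the spread of single genes does not enter the SE there. Depth limits the lowest genes: 1 CPM stands for 15.9 to 21.3 reads.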
